A study of Mus musculus with 12 samples.

Results

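The interferon-induced GTPases followed here were 10 genes, taken as the entries of the count table named Gbp2, Gbp3, Gbp4, Gbp7, Igtp, Irgm1, Irgm2, Iigp1, Mx1 and Mx2. Each name had 1 entry among 49671 genes, and all 10 passed the filter on low counts that left 15271 genes for testing. They were read in 12 libraries of polyA-selected RNA from stable derivatives of ImPSC-1, a mouse pancreatic stellate line that the labels class as mesenchymal. The study altered Kitl, the gene of stem cell factor, which activates the KIT receptor, to ask what the factor does in the cells that make it. Kitl_OE cells overexpressed Kitl, and Egfp_OE cells carried Egfp as their control. shKitl cells carried a short hairpin RNA against Kitl, and shCtrl cells were its control with a wild-type genotype in the labels. All 4 lines had 3 libraries each, came from the same parental line and grew in DMEM with 10% FBS and pyruvate. The labels do not say whether the libraries of a line came from separate cultures, so every p-value measures the spread between these libraries, which may be technical.

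Cells make these GTPases after interferons bind their receptors, when activated transcription factors reach elements in the promoters. Guanylate-binding proteins (the Gbp genes) coat membranes around intracellular pathogens. The immunity-related GTPases fall into regulators (Irgm1, Irgm2 and Igtp), which sit on the cell's own membranes and hold the others inactive there, and effectors such as Iigp1, which load onto the vacuoles of pathogens. Mx proteins are dynamin-like GTPases that restrict viruses, and many inbred mouse strains carry defective Mx alleles. Stromal cells such as fibroblasts are known to make these proteins in response to interferon.

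The promoters come first, since interferon-responsive factors act through elements in promoters. RefSeq windows of 300 bases, 250 before and 50 after a RefSeq start on GRCm38.p6, were at hand for 6 of the 10 members, with 2 windows for Gbp3 and 7 in all. No window was at hand for Gbp4, Iigp1, Mx1 and Mx2. They were searched on both strands for GAAANNGAAA, a form of the interferon-stimulated response element, and for TTCNNNGAA, a form of the gamma-activated site. At least 1 GAAANNGAAA match lay in 6 of the 7 windows, in a window of each of the 6 members, while 3.44% of 32851 promoters of the same length held it. TTCNNNGAA lay in the windows of Gbp7, Igtp and Irgm2 and in 8.3% of the promoters, and 0.454% of the promoters held both. A match describes the letters only. The windows below show the elements of 1 GBP with both motifs (Gbp7), of the GBP with 2 overlapping GAAANNGAAA matches (Gbp3), and of the 3 regulators, each 5′ to 3′ on the strand of its gene, with the matched letters in capitals. They lie at chr3:142530086-142530385 (plus strand) for Gbp7, chr3:142559794-142560093 (plus strand) for Gbp3, chr11:48871371-48871670 (minus strand) for Irgm1, chr11:58199306-58199605 (plus strand) for Igtp and chr11:58214727-58215026 (plus strand) for Irgm2.
Gbp7: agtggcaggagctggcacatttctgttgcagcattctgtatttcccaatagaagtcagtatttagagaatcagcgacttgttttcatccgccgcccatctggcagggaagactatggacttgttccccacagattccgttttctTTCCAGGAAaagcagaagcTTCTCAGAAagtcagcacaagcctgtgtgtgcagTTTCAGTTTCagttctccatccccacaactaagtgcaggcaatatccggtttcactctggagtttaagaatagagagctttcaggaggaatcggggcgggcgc
Gbp3: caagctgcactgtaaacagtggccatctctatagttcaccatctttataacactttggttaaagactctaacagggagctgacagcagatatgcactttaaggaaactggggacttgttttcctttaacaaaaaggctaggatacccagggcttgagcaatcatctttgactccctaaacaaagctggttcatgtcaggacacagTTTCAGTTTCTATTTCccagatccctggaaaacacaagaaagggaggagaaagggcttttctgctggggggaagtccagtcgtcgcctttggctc
Irgm1: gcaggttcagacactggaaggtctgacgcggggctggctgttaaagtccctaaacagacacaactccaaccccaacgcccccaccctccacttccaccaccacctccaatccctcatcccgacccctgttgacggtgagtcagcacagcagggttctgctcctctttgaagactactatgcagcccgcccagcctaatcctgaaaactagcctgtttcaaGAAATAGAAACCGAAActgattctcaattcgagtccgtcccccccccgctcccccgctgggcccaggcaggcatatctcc
Igtp: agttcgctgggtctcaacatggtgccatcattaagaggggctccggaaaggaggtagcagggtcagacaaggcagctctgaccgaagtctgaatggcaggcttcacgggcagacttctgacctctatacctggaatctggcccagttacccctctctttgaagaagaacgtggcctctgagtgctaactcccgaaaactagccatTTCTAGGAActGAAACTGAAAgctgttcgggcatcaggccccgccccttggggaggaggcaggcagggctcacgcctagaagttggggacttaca
Irgm2: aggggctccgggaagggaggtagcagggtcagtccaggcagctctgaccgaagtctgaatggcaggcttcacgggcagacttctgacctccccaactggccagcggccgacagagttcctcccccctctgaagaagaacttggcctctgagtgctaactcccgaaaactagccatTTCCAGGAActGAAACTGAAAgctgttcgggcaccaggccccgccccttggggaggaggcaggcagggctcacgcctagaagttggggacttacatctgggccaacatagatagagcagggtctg
The Igtp and Irgm2 windows were near copies, identical at 91.1% of 271 aligned positions, and both set a TTCNNNGAA match shortly before a GAAANNGAAA match. The Irgm2 window lies inside the GENCODE span of Irgm2, which begins upstream at chr11:58199618. The Irgm1 window and the second Gbp3 window (chr3:142560106-142560405) also lie inside the GENCODE spans of their genes. In each of these windows the RefSeq start differs from the start of the GENCODE span. Irgm1 had 2 overlapping GAAANNGAAA matches and no TTCNNNGAA match. In Gbp3 the upstream window also held 2 overlapping GAAANNGAAA matches, read on the other strand, and the second window of Gbp3 held none.

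Counts in genes ranged between 24979742 and 33517686 per library. Spike-in RNA took 1.35% of the counts in Egfp_OE replicate 2 and 0.446% to 0.684% in the others. Kitl had 125, 114 and 128 CPM (counts scaled to a common library size with edgeR's TMM factors) in the Kitl_OE libraries, against 72.4, 31.8 and 72.2 CPM in the Egfp_OE libraries, and 25.1, 25.5 and 30.3 CPM in the shKitl libraries, against 73.4, 73.5 and 76.3 CPM in the shCtrl libraries. Kitl passed the test in the overexpression pair (log2 fold change 1.06, adjusted p = 0.00836 by edgeR) and not in the knockdown pair (-1.46, adjusted p = 0.121), though its libraries overlapped in neither. Egfp_OE replicate 2 stood apart from its group in Kitl and spike-in share. All 8 mesenchymal markers had counts in all 12 libraries, with Vim at 1392 to 3525 CPM, Col1a1 at 697 to 11520 CPM and Des at only 0.630 to 8.71 CPM. They moved between the compared lines, and in Kitl_OE against Egfp_OE edgeR called 4 of them higher, among them Acta2 (log2 fold change 4.23, adjusted p = 0.00215), and Pdgfra lower (-3.68, adjusted p = 0.000412). Of all tested genes, 15.4% were called higher and 18.9% lower there. Of 9 leukocyte markers, Cd3e and Tyrobp had no count in any library, which allows at most 0.0858 to 0.127 CPM at these depths, and Ptprc stayed at or below 0.0394 CPM. The summed leukocyte list was higher in Kitl_OE (21 to 30.7 CPM, mostly Csf1r and Lyz2) than in Egfp_OE (5.37 to 6.15 CPM), and so was the endothelial list (22.4 to 26.5 CPM in Kitl_OE, mostly Kdr, against 3.79 to 5.55 CPM in Egfp_OE), while Pecam1 stayed at or below 0.255 CPM. In the knockdown pair the leukocyte list summed to 7.88 to 21 CPM in shKitl, against 5.21 to 9.87 CPM in shCtrl, and the endothelial list to 9.07 to 21.6 CPM in shKitl, against 5.84 to 8.09 CPM in shCtrl. The part of these markers in the results was not tested. Fewer cells making a transcript and less of it per cell cannot be told apart in such bulk RNA.

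Overexpression of Kitl went with low GTPase transcripts. In Kitl_OE against Egfp_OE libraries, 8 of the 10 genes fell, by edgeR's quasi-likelihood test at an adjusted p of 0.05, against 18.9% of all tested genes called lower, and none rose, against 15.4% called higher. The 8 were the effector Iigp1, the regulator Igtp, all 4 GBPs and both Mx genes. The regulators Irgm1 and Irgm2 did not pass the test. The median log2 fold change was -3.59 over the 10 genes and -0.07 over all tested genes.

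Iigp1, the effector (chr18:60376027-60392634, plus strand), showed the widest gap. It had 0.972, 1.46 and 1.47 CPM in Kitl_OE libraries, against 59.7, 135 and 11.7 CPM in Egfp_OE libraries. Every Kitl_OE library was far below the lowest Egfp_OE library. The log2 fold change was -5.72 (SE 1.15, adjusted p = 0.00307 by edgeR). In the knockdown pair, Iigp1 had 102, 231 and 178 CPM in shKitl libraries, against 86.6, 20.6 and 3.77 CPM in shCtrl libraries. All 3 shKitl libraries were higher than all 3 shCtrl libraries, and the shCtrl libraries spread 23.0-fold among themselves.

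Igtp (chr11:58199556-58207591, plus strand), a regulator of the IRG family, had 10.97, 21.2 and 11.1 CPM in Kitl_OE libraries, against 68.3, 187 and 17.9 CPM in Egfp_OE libraries. The groups overlapped, since the lowest Egfp_OE library was under the highest Kitl_OE library. Its log2 fold change was -2.66 (SE 0.868, adjusted p = 0.0340 by edgeR). Irgm2 (chr11:58199618-58222782, plus strand), a second regulator, had 16.8, 28.3 and 14.2 CPM in Kitl_OE libraries, against 65.8, 100.2 and 18.01 CPM in Egfp_OE libraries. These groups overlapped too, and the log2 fold change of -1.63 (SE 0.760) did not pass the test (adjusted p = 0.118 by edgeR). By their GENCODE spans the 2 genes overlap by 7974 bases on the same strand. The spans include introns, and how much of the shared stretch is exon in both genes was not looked at. Reads in any shared exon cannot be told apart, so the separate values of Igtp and Irgm2 are uncertain. Irgm1 (chr11:48861968-48871683, minus strand), the third regulator, had 134, 159 and 114 CPM in Kitl_OE libraries, against 184, 361 and 54.2 CPM in Egfp_OE libraries. The Kitl_OE libraries lay inside the range of the Egfp_OE libraries. Its log2 fold change of -0.56 (SE 0.647) did not pass the test (adjusted p = 0.538 by edgeR), and it was 0.20 without Egfp_OE replicate 2.

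The regulators were high in every shKitl library. Irgm1 had 418, 437 and 369 CPM in shKitl libraries, against 243, 78.7 and 37.95 CPM in shCtrl libraries. Igtp had 144, 217 and 211 CPM in shKitl libraries, against 99.8, 25.9 and 9.11 CPM in shCtrl libraries. Irgm2 had 129, 205 and 162 CPM in shKitl libraries, against 100.2, 27.0 and 8.34 CPM in shCtrl libraries. For each regulator the shKitl libraries lay close together and above all shCtrl libraries, while the shCtrl libraries were spread widely.

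Among the guanylate-binding proteins, Gbp7, Gbp3 and Gbp2 lie in that order on the plus strand of chromosome 3, at chr3:142530342-142550149, chr3:142560026-142573209 and chr3:142620602-142638008. Gbp3 had 4.78, 10.1 and 4.20 CPM in Kitl_OE libraries, against 90.1, 384 and 23.1 CPM in Egfp_OE libraries. Gbp7 had 2.18, 3.55 and 2.83 CPM in Kitl_OE libraries, against 52.3, 80.4 and 10.6 CPM in Egfp_OE libraries. Gbp2 had 8.05, 9.08 and 6.14 CPM in Kitl_OE libraries, against 67.0, 121 and 26.2 CPM in Egfp_OE libraries. None of the 3 genes overlapped between the groups, and in each the highest library was Egfp_OE replicate 2. The log2 fold changes were -4.71 (SE 1.14) for Gbp3, -4.06 (SE 0.886) for Gbp7 and -3.20 (SE 0.774) for Gbp2, with adjusted p of 0.00865, 0.00494 and 0.00852 by edgeR.

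The knockdown pair had its higher values of these 3 GBPs in the shKitl libraries. Gbp3 had 203, 293 and 254 CPM in shKitl libraries, against 155, 35.3 and 7.58 CPM in shCtrl libraries. Gbp7 had 86.4, 133 and 133 CPM in shKitl libraries, against 68.1, 20.6 and 5.12 CPM in shCtrl libraries. Gbp2 had 88.0, 124 and 129.5 CPM in shKitl libraries, against 82.0, 20.7 and 6.73 CPM in shCtrl libraries. The first shCtrl library was the nearest to the lowest shKitl library in all 3 genes, and the third was far below it.

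Gbp4 (chr5:105115767-105139586, minus strand) was the scarcest member. By their GENCODE spans, introns included, Gbp8 and Gbp9 overlap nearly all of it on the same strand, so its value is uncertain. It had only 2, 2 and 3 counts in Kitl_OE libraries, against 23, 46 and 14 counts in Egfp_OE libraries. The ratio of the summed counts at equal library size was 0.0919, with an exact 95% interval of 0.0359 to 0.198 that covers counting error only. The groups did not overlap, and the fitted log2 fold change was -3.46 (SE 1.17, adjusted p = 0.0399 by edgeR). In the knockdown pair Gbp4 had 5.26, 25.9 and 9.48 CPM in shKitl libraries, against 3.29, 0.315 and 0.339 CPM in shCtrl libraries. The shKitl libraries were all above the shCtrl libraries, of which the first was about 10-fold above the other two.

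The Mx genes lie close together on chromosome 16, Mx1 at chr16:97447035-97462907 (minus strand) and Mx2 at chr16:97535308-97560900 (plus strand), which GENCODE classes as a polymorphic pseudogene. Mx1 had 0.272, 0.330 and 0.205 CPM in Kitl_OE libraries, against 6.84, 17.9 and 1.84 CPM in Egfp_OE libraries. Mx2 had 1.13, 2.60 and 0.887 CPM in Kitl_OE libraries, against 15.1, 42.0 and 4.49 CPM in Egfp_OE libraries. Neither gene overlapped between the groups. The log2 fold changes were -5.02 (SE 1.25, adjusted p = 0.0101) for Mx1 and -3.73 (SE 1.01, adjusted p = 0.0146) for Mx2 by edgeR. In the knockdown pair, Mx1 had 10.8, 29.0 and 17.2 CPM in shKitl libraries, against 10.0, 2.13 and 0.127 CPM in shCtrl libraries, and Mx2 had 19.1, 27.7 and 34.5 CPM in shKitl libraries, against 23.0, 4.88 and 1.31 CPM in shCtrl libraries. Mx2 was the single member whose shKitl and shCtrl libraries overlapped.

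**Figure D1:**
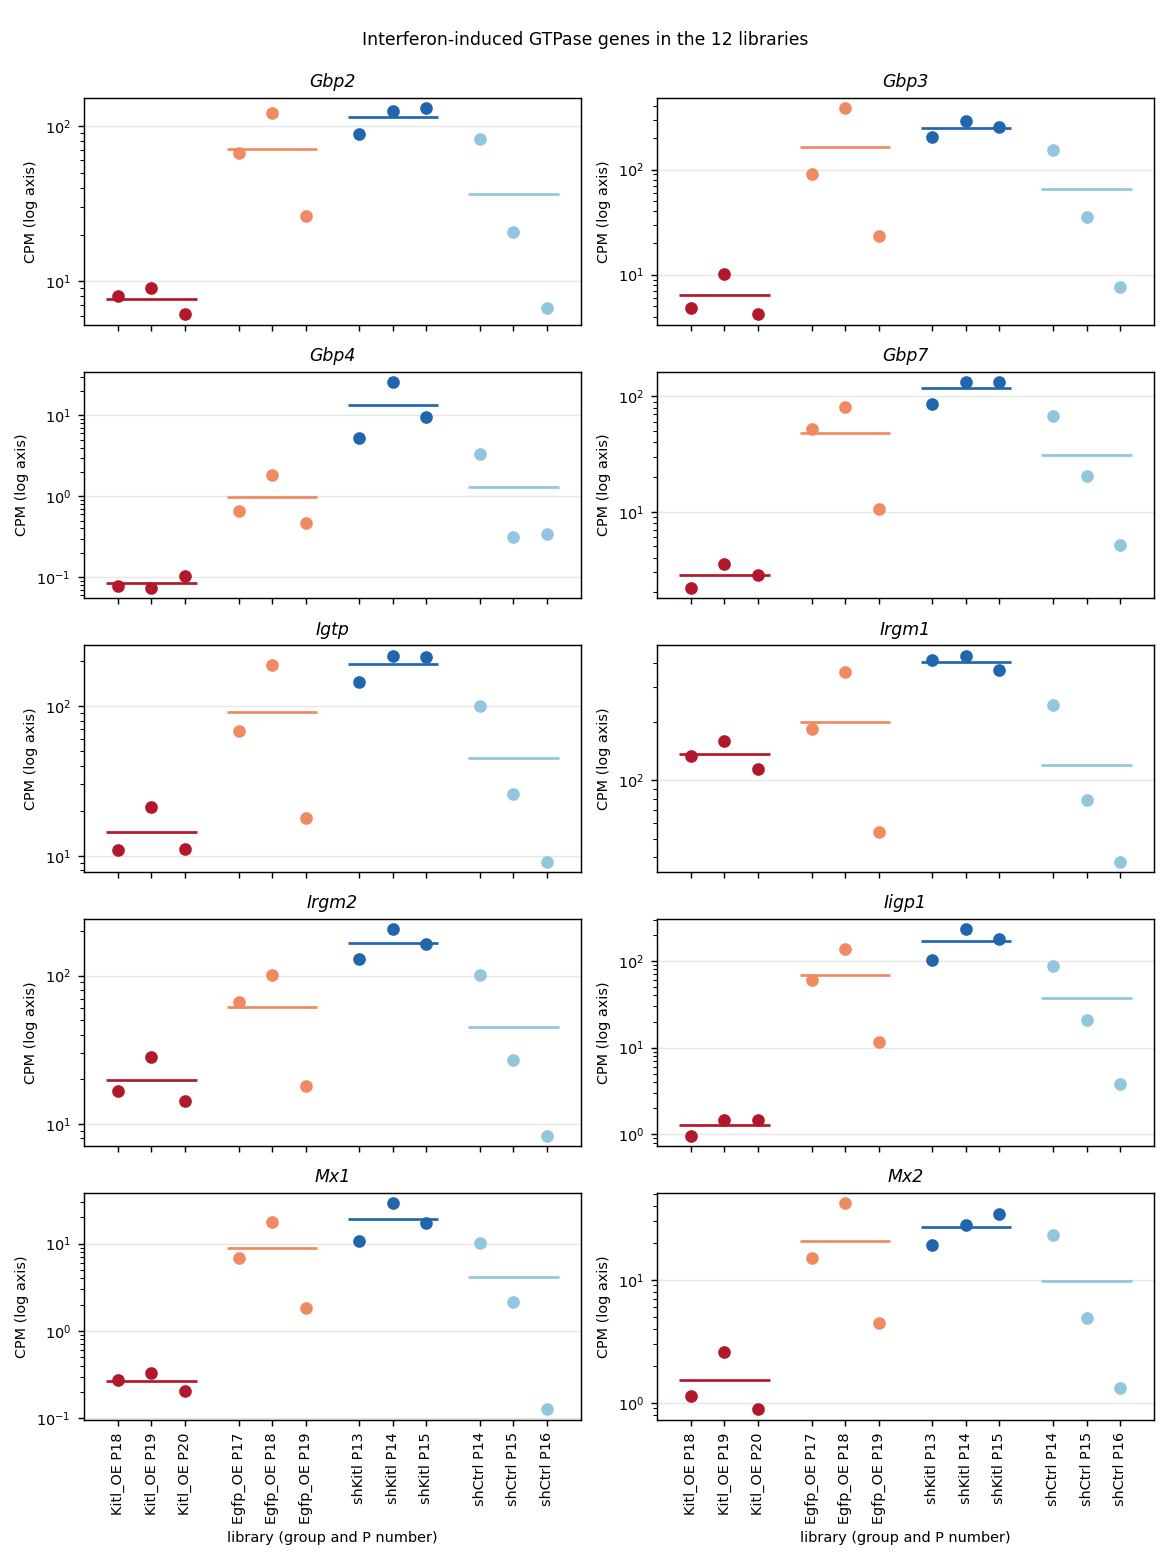
Each panel plots the level of 1 GTPase gene in CPM on a log axis, with a point per library, labelled by group and P number, and a line at the mean of each group. The Kitl_OE points are low and close together for Iigp1 (0.972 to 1.47 CPM), the shKitl points are high (102 to 231 CPM), and the Egfp_OE (11.7 to 135 CPM) and shCtrl (3.77 to 86.6 CPM) points spread widely.

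Of the 8 calls, 4 held in all alternatives tried. Gbp2, Gbp3, Gbp7 and Iigp1 stayed lower in Kitl_OE at an adjusted p of 0.05, or of 0.01 where that was the limit set, in all 27 alternatives of scaling, test, filter, covariate or left-out library. Mx1 was called in all 12 fits with a library left out, and was not called with limma-voom (adjusted p = 0.0544), with no count filter or at the limit of 0.01. Gbp4, Igtp and Mx2 depended on single libraries. Without Egfp_OE replicate 2, without Kitl_OE replicate 1 and without Kitl_OE replicate 3, the count was 5 in each case (Gbp2, Gbp3, Gbp7, Iigp1 and Mx1), with Gbp4, Igtp and Mx2 no longer called. Without Kitl_OE replicate 2 it was 6. Leaving out Egfp_OE replicate 2, the highest library of its group for each member, reduced the fitted decreases: the log2 fold change was then -4.76 for Iigp1, -3.99 for Mx1, -3.44 for Gbp7, -3.14 for Gbp3, -2.57 for Gbp2, -2.66 for Gbp4 and for Mx2, -1.57 for Igtp and -1.07 for Irgm2. The median over the 10 genes was -2.66 without it, against -3.59 with it. Of the 10 genes, 7 had libraries that did not overlap and were lower in Kitl_OE, against 25.6% of all tested genes.

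**Figure D2:**
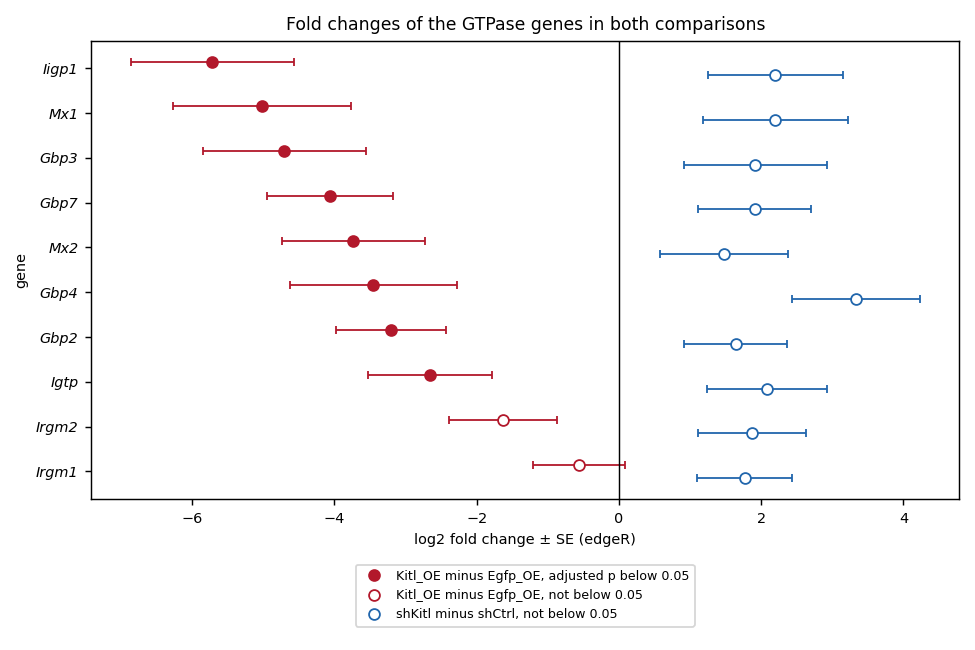
Points show the edgeR log2 fold change of each GTPase gene with its standard error, for Kitl_OE minus Egfp_OE (red) and shKitl minus shCtrl (blue), filled where the adjusted p was below 0.05. The red points run between -5.72 (Iigp1) and -0.56 (Irgm1), and the open blue points between 1.47 (Mx2) and 3.34 (Gbp4).

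The make-up of the GTPase transcripts differed as well as their amount. On the deposited TPM scale, which divides counts by gene length and so allows genes to be compared, the 10 genes summed to 104, 159 and 102 TPM in Kitl_OE libraries, against 520, 960 and 159 TPM in Egfp_OE libraries. They summed to 930, 1563 and 1352 TPM in shKitl libraries, against 829, 199 and 59.1 TPM in shCtrl libraries. Irgm1 made up 55.9% ± 4.64 of the sum in Kitl_OE libraries and 17.5% ± 2.47 in Egfp_OE libraries (SD, n = 3 each), with no overlap. Iigp1 made up 1.02% ± 0.320 in Kitl_OE libraries and 9.75% ± 1.71 in Egfp_OE libraries, and Gbp3 made up 4.42% ± 1.10 in Kitl_OE libraries and 19.6% ± 7.24 in Egfp_OE libraries (SD, n = 3 each), again with no overlap. Each of these 3 shares gave p = 0.1 in a two-sided exact permutation test, the smallest p that 3 against 3 libraries allow. Irgm1 held the largest share of the 10 genes in each Kitl_OE library. It also ranked first in shKitl replicate 1 (21.6%), shCtrl replicate 2 (20.9%) and shCtrl replicate 3, at smaller shares. In the shCtrl library with the lowest sum, replicate 3 with 59.1 TPM, the Irgm1 share was 31.3%. The share of a gene with a small change must grow when the others drop, so the shares restate the unequal changes and are no separate evidence.

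**Figure D3:**
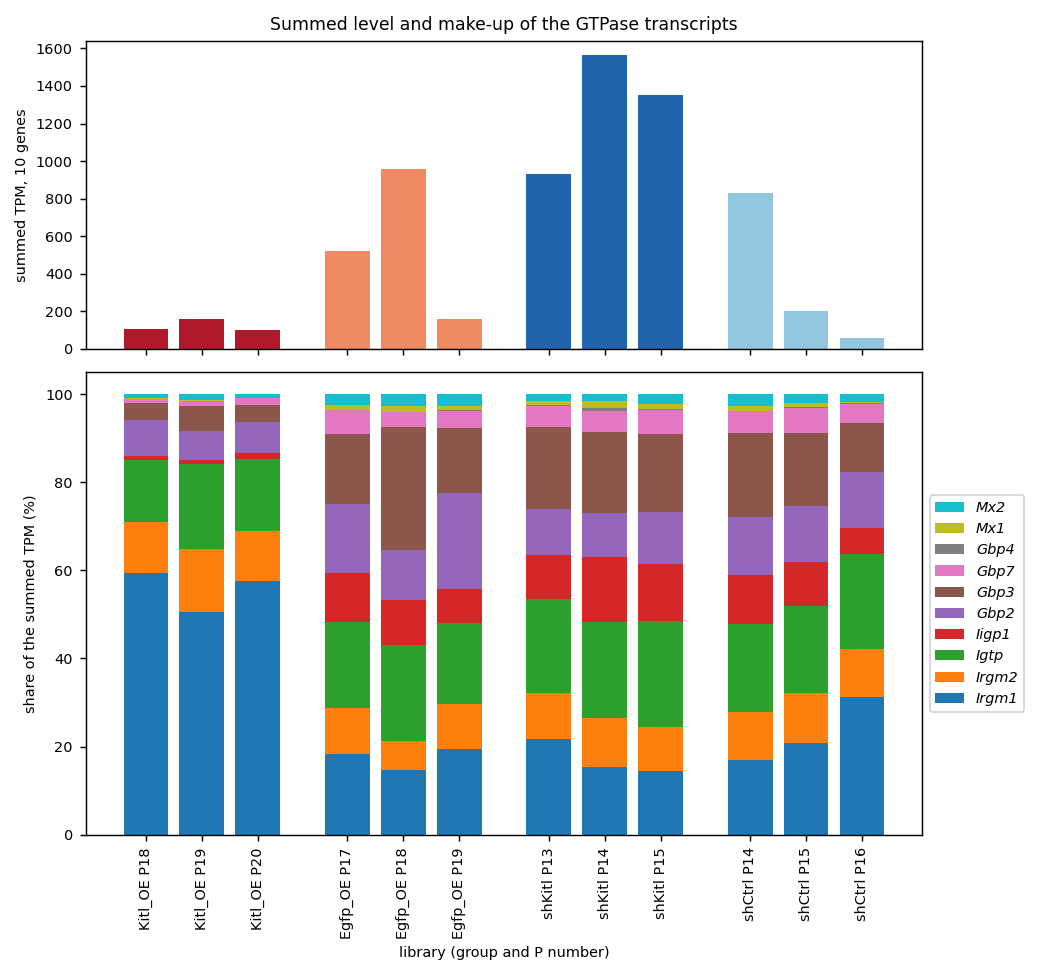
The upper panel shows the summed TPM of the 10 genes in each library, and the lower panel shows the share of that sum held by each gene, in percent. The Kitl_OE sums are 104, 159 and 102 TPM, and Irgm1 (blue, at the base) holds 55.9% on average there, against 17.5% in the Egfp_OE libraries.

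With Kitl knocked down the fitted level of all 10 members was higher, as it was for 54.4% of all tested genes, and none of the 10 passed the test. In shKitl against shCtrl libraries the log2 fold changes ran between 1.47 (Mx2) and 3.34 (Gbp4), with adjusted p of 0.194 to 0.428 by edgeR. edgeR called 0% of all tested genes in this comparison, in either direction. At an unadjusted p of 0.05, 7 of the 10 were higher, against 11.1% of all tested genes. DESeq2 called 1 of the 10 higher, against 2.08% of the genes, and limma-voom called 0, as it did among all genes. The libraries of 9 of the 10 genes did not overlap and were higher in shKitl, against 11% of all tested genes. The median log2 fold change was 1.91 over the 10 genes and 0.05 over all tested genes, and over the 10 genes it was 3.33 without shCtrl replicate 1 and 1.37 without shCtrl replicate 3.

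Gbp4 was the member that DESeq2 called (log2 fold change 3.32, adjusted p = 0.00730). edgeR called it without shCtrl replicate 1 (log2 fold change 5.35, adjusted p = 0.0498), and the other 9 genes passed in none of the 27 alternatives. The SE of the 10 fold changes lay between 0.664 (Irgm1) and 1.02 (Mx1).

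The responses in the overexpression and knockdown pairs differed in 8 of the 10 genes when the difference itself was tested. Kitl_OE minus Egfp_OE was below shKitl minus shCtrl at an adjusted p of 0.05 by edgeR for these 8, against 9.88% of all tested genes. The log2 difference was -7.92 (SE 1.48, adjusted p = 0.00525) for Iigp1 and -7.22 (SE 1.62, adjusted p = 0.0129) for Mx1. For Iigp1 it was -6.93 without Egfp_OE replicate 2 and -9.51 without shCtrl replicate 1, and for Mx1 it was -6.15 and -9.07 without the same libraries. It was -3.50 (adjusted p = 0.0509) for Irgm2 and -2.32 (adjusted p = 0.118) for Irgm1, which did not pass. The count was 6 without Egfp_OE replicate 2, Kitl_OE replicate 1, Kitl_OE replicate 3, shKitl replicate 2 or shCtrl replicate 2, each left out alone.

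The 2 control lines did not differ detectably in the GTPases. In Egfp_OE against shCtrl libraries, edgeR called 0 of the 10 genes, against 1.25% of all tested genes, and 0 had an unadjusted p below 0.05, against 24.4%. DESeq2 called 0, against 10.2%, and limma-voom called 0, against 2.01%. The libraries of all 10 genes overlapped, while 13.9% of all tested genes did not overlap and were lower in Egfp_OE, and 14.6% higher. Fitted log2 fold changes lay between -0.45 (Gbp4) and 1.33 (Gbp3), with SE of 0.649 to 0.992. Such errors leave room for large differences in either direction. Against shCtrl, edgeR called Kitl_OE lower in 6 of the 10 genes (Gbp2, Gbp3, Gbp4, Gbp7, Iigp1 and Mx1), against 16.5% of all tested genes. Of these 6, Gbp2, Gbp3 and Mx1 overlapped between the groups. This comparison shares the Kitl_OE libraries with the overexpression pair and the shCtrl libraries with the knockdown pair. Its 6 calls became 2 (Gbp7 and Iigp1) without any single Kitl_OE library or without shCtrl replicate 1. The log2 fold changes were -4.82 (SE 1.11, adjusted p = 0.00713) for Iigp1, or -3.22 without shCtrl replicate 1, and 0.18 (SE 0.646, adjusted p = 0.858) for Irgm1. The groups did not overlap and were lower in Kitl_OE for 3 of the 10 genes, against 30.1% of all tested genes.

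The members spread more inside the control lines than inside the Kitl_OE and shKitl lines. The range within a group, as the highest minus the lowest log2(CPM + 1), had a median over the 10 genes of 0.51 in Kitl_OE, 2.77 in Egfp_OE, 0.64 in shKitl and 3.40 in shCtrl. The medians over all tested genes were 0.22 in Kitl_OE, 0.59 in Egfp_OE, 0.45 in shKitl and 0.32 in shCtrl. In Egfp_OE 9 of the 10 genes had a range over 2, as did 2.47% of all tested genes, and in shCtrl 9 of the 10 did, as did 1.35% of all tested genes. The genes moved in step: all 10 were highest in replicate 2 and lowest in replicate 3 of Egfp_OE, and all 10 were highest in replicate 1 of shCtrl, with 9 lowest in replicate 3.

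The descriptions of the libraries carry a P number whose meaning the labels do not give. It was 18, 19 and 20 in Kitl_OE, 17, 18 and 19 in Egfp_OE, 13, 14 and 15 in shKitl and 14, 15 and 16 in shCtrl. Within a group it has the same order as the replicate number. In shCtrl the members were highest at the lowest P number, and the other groups did not share that order. In shKitl 9 of the 10 genes were lowest at the lowest P number, 13. In Egfp_OE all 10 were highest at 18, and in Kitl_OE 8 were highest at 19. At P number 18 all 10 genes were lower in the Kitl_OE library than in the Egfp_OE library, by up to 139-fold (Iigp1), where the Egfp_OE library was replicate 2. At P number 19, 7 were lower in the Kitl_OE library, by up to 8.02-fold (Iigp1), and Igtp, Irgm1 and Irgm2 were higher there. At P numbers 14 and 15 all 10 genes were higher in the shKitl than in the shCtrl library, by 1.20-fold (Mx2) to 7.88-fold (Gbp4) at 14 and by 4.68-fold (Irgm1) to 30.1-fold (Gbp4) at 15. Each of these contrasts sets 1 library against 1 library. The matching shares of all tested genes were not taken, so the counts describe the members only. With P number as a covariate, 5 of the 10 genes passed in Kitl_OE minus Egfp_OE and none in Kitl_OE minus shCtrl, again without the shares of all tested genes. Neither Kitl_OE nor Egfp_OE shares a P number with shCtrl, so group and P number cannot be told apart in either comparison. In Egfp_OE minus shCtrl the median log2 fold change of the 10 genes was 3.06 with the covariate, against 0.93 without it. None of the 10 passed there in either fit.

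Other genes of the pathway were read from lists of fixed membership. Of 17 other interferon-inducible GTPases 13 were tested. In Kitl_OE against Egfp_OE 6 were lower, against 18.9% of all tested genes, and 2 higher, against 15.4%. The median log2 fold change was -3.67. Gm4841 (-6.64), F830016B08Rik (-6.29) and Gm4951 (-6.08) had the largest decreases, all at an adjusted p of 0.0104 or less by edgeR, and stood at -5.12, -4.85 and -4.61 in that order without Egfp_OE replicate 2. Gm4841 and F830016B08Rik had 0 to 3 counts in each Kitl_OE library, with ratios of summed counts to Egfp_OE of 0.0103 (exact 95% interval 0.00333 to 0.0242) and 0.0133 (exact 95% interval 0.00485 to 0.0291). 9930111J21Rik1 went the other way, with 16.4, 17.6 and 19.1 CPM in Kitl_OE libraries, against 0.629, 0.200 and 0.268 CPM in Egfp_OE libraries. Its log2 fold change was 5.54 (SE 0.673, adjusted p = 0.000142 by edgeR), and 9930111J21Rik2 also rose (4.51). These genes belong to families of close copies, so their separate values are uncertain.

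Upstream of the GTPases the ligands were nearly absent. Of 10 interferon genes, Ifna1, Ifna2, Ifna5, Ifng, Ifnl2 and Ifnl3 had no count in any library, and the list summed to at most 0.801 CPM in a library. Ifnb1, interferon beta and the single tested ligand, had 1, 0 and 1 counts in Kitl_OE libraries, against 10, 19 and 0 counts in Egfp_OE libraries. The ratio of the summed counts was 0.0752, with an exact 95% interval of 0.00869 to 0.297. Its log2 fold change of -3.58 (adjusted p = 0.0464 by edgeR) was no longer called in 11 of 12 fits that left out a library, and was -2.41 without Egfp_OE replicate 2. Of 9 receptors and kinases, Il10rb (0.81) and Ifngr1 (0.52) rose, against 15.4% of all tested genes, and none fell, against 18.9%. The median of the list was 0.43, and neither call held without Kitl_OE replicate 1 or without Egfp_OE replicate 3.

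Transcription factors that read the signal included several that fell too. Of 11 tested 5 were lower in Kitl_OE, against 18.9% of all tested genes, and none higher, against 15.4%. The median log2 fold change was -1.04. Irf7, which amplifies type I interferon production, fell by 4.80 (SE 1.37, adjusted p = 0.0188), and Irf5, a related factor, fell by 3.55 (SE 0.368, adjusted p = 5.12e-05) on the log2 scale by edgeR. Irf7 had 7.39, 17.2 and 6.01 CPM in Kitl_OE libraries, against 79.2, 754 and 19.6 CPM in Egfp_OE libraries, and without Egfp_OE replicate 2 its log2 fold change was -2.26 and did not pass (adjusted p = 0.119 by edgeR). Nlrc5, a transactivator of MHC class I genes, fell by 1.85 on the log2 scale (adjusted p = 0.0120 by edgeR). The count was 2 without Kitl_OE replicate 1 and 3 without Kitl_OE replicate 3 or Egfp_OE replicate 2. Of 8 inhibitors 4 were lower and 1 higher, against 18.9% and 15.4% of all tested genes, with a median of -0.60. Isg15, a ubiquitin-like modifier, changed by -4.81 (-2.71 without Egfp_OE replicate 2), Usp18, the protease that removes it, by -4.40 (-3.12 without it), and Socs1, an inhibitor of JAK kinases, by -1.59. Ptpn6, a tyrosine phosphatase, rose by 2.67.

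Proteins that place or dispose of the GTPases, and related enzymes that need no interferon, had calls in both directions, each smaller on the log2 scale than the changes of the 8 GTPases that fell. Of 14 conjugation and ubiquitin partners 1 was lower and 6 higher, against 18.9% and 15.4% of all tested genes. Their median log2 fold change was 0.54. Rnf213, a large ubiquitin ligase, fell by 1.92 (adjusted p = 0.0259 by edgeR), while Trim21, another ubiquitin ligase, stood at -1.67 and did not pass (adjusted p = 0.0603 by edgeR). Gabarapl1 (0.92) and Atg12 (0.85), parts of the autophagy conjugation system that directs these GTPases, rose. The 6 became 3 without Kitl_OE replicate 2 or without Egfp_OE replicate 3, and the call of Rnf213 was lost without any single Kitl_OE library and without Egfp_OE replicate 1 or 2. The median was 0.23 over 10 constitutive members of the dynamin superfamily. Of these 1 was lower, Dnm1 at -1.20 (adjusted p = 0.0468 by edgeR), against 18.9% of all tested genes. That call was lost without any single Kitl_OE library, without Egfp_OE replicate 1 or 3 and without shCtrl replicate 2. In shKitl against shCtrl edgeR called no gene of any of these lists, as it called none of all tested genes. The medians were 2.23 for the other GTPases, 0.25 for receptors and kinases, 1.06 for transcription factors, 0.69 for inhibitors, 0.38 for partners and -0.05 for the dynamin relatives.

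**Figure D4:**
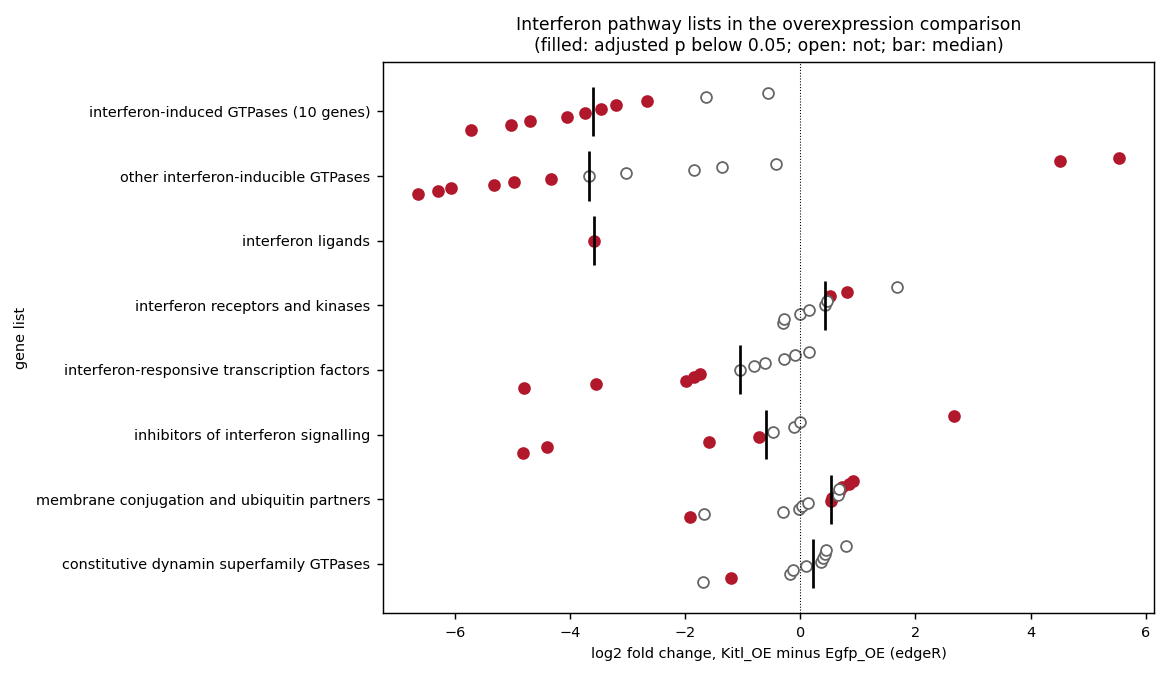
Each point is the edgeR log2 fold change of 1 tested gene for Kitl_OE minus Egfp_OE, by list, filled where the adjusted p was below 0.05, with a bar at the median. The GTPase lists have medians of -3.59 and -3.67, while receptors and kinases (0.43), conjugation partners (0.54) and constitutive dynamin relatives (0.23) lie near 0.

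Across the 12 libraries the members varied together. The Pearson correlation of a member's log2(CPM + 1) with the mean of the other members, each standardised, was highest for Igtp (0.993) and Mx1 (0.991) and lowest for Gbp4 (0.844) and Irgm1 (0.821). Among all other tested genes, the 10 most like the mean of the members were Sp100 (0.994), Dhx58 (0.993), Gbp6 (0.990), Trim30a (0.990), Lgals3bp (0.989), Phf11d (0.988), Gm4951 (0.987), Oasl2 (0.987), Zbp1 (0.987) and Ifi203 (0.986), each r over the 12 libraries. The points share their groups and their library scaling, so these values describe likeness in these libraries only. Sp100, a nuclear body protein, had 8.46 to 13.2 CPM in Kitl_OE libraries, against 13.95 to 103 CPM in Egfp_OE libraries, and 79.1 to 131 CPM in shKitl libraries, against 9.74 to 77.9 CPM in shCtrl libraries. Dhx58, a helicase of the RNA-sensing pathway, had 2.73 to 7.40 CPM in Kitl_OE libraries, against 8.55 to 105 CPM in Egfp_OE libraries. Since these 10 genes were chosen for following the members over the same libraries, their direction is set by the choice and was not tested.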

How the data were processed

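PolyA-selected RNA was counted in 12 libraries, grouped by their titles. The authors deposited raw read counts per gene, for which the submitters' processing notes list STAR 2.5.2b, featureCounts (Subread 1.5.2), DESeq2 and the build GRCm38. The authors also deposited the libraries as TPM values. The sources used here do not give the strand setting, gene lengths or annotation release, so overlapping genes, near-identical copies and antisense genes are uncertain. Of 49763 entries, 92 were spike-ins and entered neither library sizes nor tests. Coordinates came from GENCODE M21, where 49326 of the 49671 IDs were found. The gene counts were then modelled in edgeR 4.0.16 (R 4.3.3) with filterByExpr by group, TMM factors, robust quasi-likelihood dispersion and 1 coefficient for each of the 4 groups. The procedure was run on simulated data in which each gene was drawn on its own. Genes that move in step between libraries, as the members did, were not covered by it. Benjamini-Hochberg adjustment ran over 15271 genes in each of 5 comparisons, with a threshold of 0.05. The SE is the fold change divided by the root of F. Count intervals are exact (Clopper-Pearson) and cover counting error only. Depth was ample for all members but Gbp4 and Mx1 in their lowest libraries.

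Named genes were the 10 members, Kitl, in each list up to 4 tested genes with the largest absolute change in Kitl_OE minus Egfp_OE, and the 10 genes closest in pattern to the members. Some genes of the lists are not reported here. 9930111J21Rik2, the marker genes and the genes with no counts were named after their values were seen. The lists were other interferon-inducible GTPases, ligands, receptors and kinases, transcription factors, inhibitors, conjugation partners, constitutive dynamin relatives, and markers of mesenchymal, leukocyte, endothelial and epithelial cells. Members and lists were chosen with earlier results of these data known. Alternatives were other scalings (DESeq2 size factors, library totals, spike-ins), other tests (DESeq2 1.42.0, and limma 3.58.1 on voom weights or on TPM with a pseudocount of 1 or 0.1), other count filters and thresholds, a replicate block, a P number covariate, fits to the compared groups or to shared P numbers alone, and each library left out in turn. Promoters were searched in Python 3.11.15 and aligned with Biopython 1.88.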

Additional observations from a re-analysis of the deposited data

Results flagged for a closer look

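In 8 of the 10 GTPase genes the overexpression effect differed from the knockdown effect when that difference was itself tested by edgeR, which is why they are listed here. The log2 difference, Kitl_OE minus Egfp_OE less shKitl minus shCtrl, was -4.84 for Gbp2 (adjusted p = 0.0114), -6.63 for Gbp3 (adjusted p = 0.0140), -6.79 for Gbp4 (adjusted p = 0.0106) and -5.97 for Gbp7 (adjusted p = 0.00710). It was -4.74 for Igtp (adjusted p = 0.0240) and -7.92 for Iigp1 (adjusted p = 0.00525), the IRG members that passed, and -7.22 for Mx1 (adjusted p = 0.0129) and -5.20 for Mx2 (adjusted p = 0.0253). The libraries of Igtp overlapped in the overexpression pair and those of Mx2 in the knockdown pair. Only Iigp1 kept this difference below the threshold in all 26 alternatives.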

How the results depend on the processing

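In the main analysis 8 members were called in Kitl_OE minus Egfp_OE, 0 in shKitl minus shCtrl, 0 in Egfp_OE minus shCtrl, 6 in Kitl_OE minus shCtrl and 8 in the difference of the first pair of comparisons. In Kitl_OE minus Egfp_OE the count was 4 with no count filter, 4 at an adjusted p of 0.01, 5 with limma-voom, 5 with the P number as a covariate and 5 with only shared P numbers, and 5 to 9 with a library left out. In shKitl minus shCtrl it was 1 with DESeq2 and 0 to 1 with a library left out. In Egfp_OE minus shCtrl it was 0 in all 27 alternatives. In Kitl_OE minus shCtrl it was 0 with limma-voom and with the P number as a covariate, 1 with no count filter and at an adjusted p of 0.01, 2 with limma on log2(TPM + 1) or log2(TPM + 0.1) and with only shared P numbers, 3 with only the groups compared, and 2 to 7 with a library left out. In the difference it was 1 with only shared P numbers, 2 at an adjusted p of 0.01 and 3 with no count filter. The number of all genes called changed with the setting as well. Over the alternatives it ran between 2334 and 6150 in Kitl_OE minus Egfp_OE (5236 in the main analysis). It ran between 0 and 452 in shKitl minus shCtrl (main 0) and between 0 and 1553 in Egfp_OE minus shCtrl (main 191). In Kitl_OE minus shCtrl it ran between 1608 and 7593 (main 4930), and in the difference between 642 and 3037 (main 2131). The member counts were not set against these by setting. The causes were not tested, beyond the smaller number of libraries where some were left out.

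Signs turned only in values that had not passed the test or that no longer did. In Kitl_OE minus Egfp_OE, Irgm1 was 0.17 with the P number as a covariate and ran between -1.002 (without Egfp_OE replicate 3) and 0.20 (without Egfp_OE replicate 2) with a library left out. In Egfp_OE minus shCtrl, the values with a library left out ran between -0.22 and 2.95 for Gbp3, -1.24 and 1.56 for Gbp4, -0.060 and 2.37 for Igtp, -0.0095 and 1.77 for Irgm1, -0.11 and 1.79 for Irgm2, and -0.050 and 2.49 for Iigp1, with the low end without Egfp_OE replicate 2 and the high end without shCtrl replicate 1. Spike-in scaling gave -0.14 for Gbp7, -0.061 for Irgm1 and -0.29 for Irgm2. Irgm2 was -0.12 with only shared P numbers and -0.062 without shCtrl replicate 3, and Gbp4 was 0.084 with limma-voom and 1.60 with the P number as a covariate. In Kitl_OE minus shCtrl, the P number as a covariate gave 0.54 for Gbp2, 0.27 for Gbp3, 1.12 for Igtp, 2.01 for Irgm2, 0.31 for Mx1 and 0.39 for Mx2. Irgm1 was -0.22 with spike-in scaling, -0.11 with only shared P numbers, -0.032 without shCtrl replicate 2 and between -0.23 (without shCtrl replicate 3) and 1.22 (without shCtrl replicate 1) with a library left out. Irgm2 ran between -1.67 (without shCtrl replicate 3) and 0.16 (without shCtrl replicate 1). Spike-in scaling moved the median of all genes to -0.34 in Egfp_OE minus shCtrl and to -0.35 in Kitl_OE minus shCtrl.

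Whether the replicate numbers pair the libraries was not tested. Deviations of same-numbered libraries correlated at 0.05, 0.31 and 0.25 in the overexpression pair and at 0.13, -0.44 and 0.60 in the knockdown pair. Libraries with different numbers correlated at -0.28 to 0.16 in the overexpression pair and at -0.66 to 0.61 in the knockdown pair. Of libraries sharing a P number, shKitl replicate 2 with shCtrl replicate 1 gave 0.61, and shKitl replicate 3 with shCtrl replicate 2 gave 0.52. Kitl_OE replicate 1 with Egfp_OE replicate 2 gave -0.0023, and Kitl_OE replicate 2 with Egfp_OE replicate 3 gave -0.28. With the replicate number as a block, 7 members were called in Kitl_OE minus Egfp_OE, 0 in shKitl minus shCtrl, 0 in Egfp_OE minus shCtrl, 5 in Kitl_OE minus shCtrl and 9 in the difference.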

Other observations

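Genes beside the members were looked at after the values of the members had been seen. Within 100000 bases of a member, 17 tested genes belonged to neither list of interferon-inducible GTPases, with a median log2 fold change of -0.17 in Kitl_OE minus Egfp_OE. By edgeR 3 of the 17 were lower, Bace2 (-5.55), Smim3 (-1.54) and Kyat3 (-1.16), against 18.9% of all tested genes. Only 1 was higher, Trim7 (1.28), against 15.4% of all tested genes.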
